A study of Homo sapiens with 4 samples.

Results

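The mRNAs described here encode the core microRNA machinery: the nucleases Drosha and Dicer (DROSHA, DICER1), Drosha's partner DGCR8, the 4 Argonaute proteins (AGO1 to AGO4) and the 3 TNRC6 proteins (TNRC6A to TNRC6C). They were taken as all probe sets whose single gene symbol in the platform annotation is 1 of these 10 genes, whatever their signal. This gave 40 of the 54675 probe sets on the array, for 9 genes. The 4 probe sets annotated to DGCR8 also carry a microRNA gene's symbol, and 3 more probe sets of AGO2 carry another symbol, so these 7 were not used and DGCR8 was not analysed here.

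MicroRNAs are cut from hairpin precursors first by Drosha with DGCR8 in the nucleus and then by Dicer in the cytoplasm. The mature strand is held by an Argonaute protein, which pairs it to target mRNAs, and Argonaute binds a TNRC6 (GW182) protein that brings in deadenylases and decapping factors. The fragile X protein FMRP is an RNA-binding protein that represses translation, and it has been found in complexes with Argonaute and Dicer proteins. The comparison here concerns the mRNAs of these factors, not the proteins.

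The immunoprecipitate (IP) group held 2 samples of RNA recovered with the anti-FLAG M2 antibody from cells making FlagHA-tagged FMRP, washed at 300 mM KCl. The lysate group held 2 samples of total RNA set aside from the clarified lysate before the IP. Both groups came from a FlpIn T-Rex HEK293 stable line, derived from human embryonic kidney, whose integrated transgene responds to doxycycline, given at 1 µg/ml for 16 h. The labels name neither the promoter nor the number of clones, and give no mock IP among these samples. Each sample, with 2 µg of RNA labelled, was hybridized to its own Human Genome U133 Plus 2.0 array.

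Values are log2 signals of probe sets as deposited, with array medians between 4.67 and 4.71, and the arrays' number limits the precision. Pearson's r was 0.992 between the IP arrays and 0.993 between the lysate arrays across the 13165 genes tested, which are not independent replicates. The labels do not say whether replicates came from separate cultures, so p-values measure only the spread between these samples, which may be technical. Of 8 HEK293 markers, 7 were above the filter on low signals (the median over all probe sets, 4.69) in lysate and NEFM was not (its mean was 3.73). Of 10 markers of other cell types, 8 had a probe set and 3 (HBB, PECAM1 and COL1A1) were above the filter. The summed log2 signal of those 8 was 36.8 to 37.9 in IP samples and 34.8 to 35.3 in lysate samples. That of the 8 HEK293 markers was also higher in IP samples, at 74.6 to 75.5 against 74.1 to 74.3. The part of these sums in the results was not tested.

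Changes are IP minus lysate on the log2 scale, from a limma fit over all genes, with each gene represented by its brightest probe set and a threshold of 0.05 on the adjusted p. Of the 9 genes, 4 were higher in the IP (DROSHA, TNRC6C, DICER1 and AGO3), none was lower and 5 did not pass. At an unadjusted limma p under 0.05 the count of lower genes was also 0. Over all genes tested, 63.8% passed, 35.0% as higher and 28.8% as lower. The median change of the 9 genes was 0.19, beside 0.08 for all genes, whose quartiles were -0.48 and 0.61. The direction of small changes depends on the scale. With each array centred on its hybridization controls, every change moved by -0.48, the all-gene median became -0.40, and DROSHA alone of the 9 remained higher while AGO1, TNRC6A and TNRC6B were called lower. Over all genes, 24.7% of calls were then higher, in place of 54.9%.

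**Figure D1:**
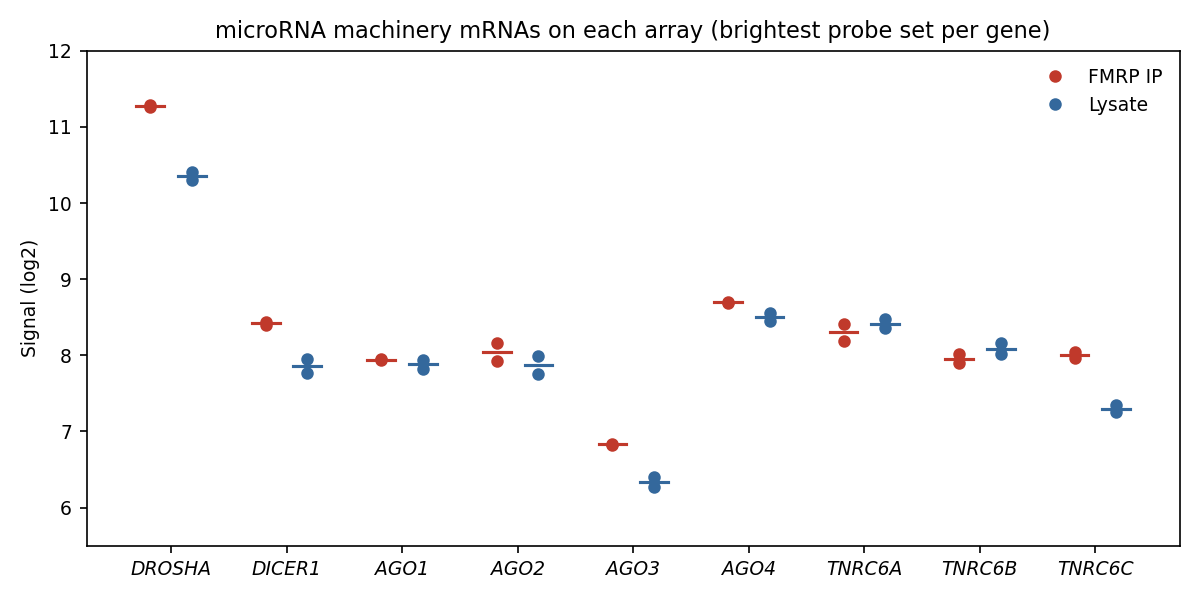
Log2 signal of each of the 9 genes (brightest probe set) on the IP arrays (red, left of each pair) and the lysate arrays (blue, right). Points are the single arrays and bars their means (n = 2 each). The IP arrays of DROSHA, DICER1, AGO3 and TNRC6C lie clear of the lysate arrays, with DROSHA near 11.3 against 10.3 to 10.4. Those of AGO4 and, barely, TNRC6B do not overlap the lysate arrays either, and neither change passed.

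DROSHA, the nuclear nuclease that frees the hairpin from the primary transcript, rose most of the 9. Its single probe set, 218269_at, stood at 11.27 and 11.29 on the IP arrays and at 10.30 and 10.40 on the lysate arrays. The groups did not overlap, and the spread within each was a small part of the gap. The change of 0.93 ± 0.12 (SE, n = 2 against 2) is a 1.90-fold higher signal in the IP (limma, adjusted p = 2.71e-04). It was larger than the change of 85.5% of the genes tested and lay 0.85 above the all-gene median. With hybridization control centring it was 0.45 (adjusted p = 0.0248). The genes with the most similar pattern over the 4 arrays, by Euclidean distance between mean-centred log2 values, were CENPBD1P (0.019), NALCN (0.021) and CSRNP1 (0.022).

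DICER1, which cuts the exported hairpin to a duplex, rose on all 3 of its tested probe sets. Probe set 212888_at, which represents the gene, stood at 8.40 and 8.44 on the IP arrays and at 7.95 and 7.77 on the lysate arrays. Its change of 0.56 ± 0.12 (SE) is a 1.47-fold higher signal (adjusted p = 0.00481). The change did not pass with hybridization control centring, at 0.08 (adjusted p = 0.693). Probe set 213229_at changed more, standing at 8.49 and 8.37 on the IP arrays and at 7.21 and 7.497 on the lysate arrays. Its change was 1.08, a 2.11-fold higher signal (adjusted p = 7.13e-04 over probe sets), and it passed with hybridization control centring too, at 0.60. The third, 206061_s_at, stood at 6.68 and 6.82 on the IP arrays and at 5.997 and 6.27 on the lysate arrays, a change of 0.62 (adjusted p = 0.00819). It did not pass without lysate replicate 1 (0.48), nor did 212888_at without lysate replicate 2 in the fit over probe sets (0.46). The IP arrays lay above both lysate arrays for each of the 3, as they did for 42.7% of all tested probe sets.

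Of the 4 Argonaute mRNAs, whose proteins hold the guide strand, AGO1, AGO2 and AGO4 did not pass on their brightest probe sets. AGO2, the family's slicing enzyme, stood at 7.93 and 8.16 on the IP arrays and at 7.75 and 7.997 on the lysate arrays. The groups overlapped, and the change of 0.17 had a 95% interval of -0.16 to 0.51 (limma, adjusted p = 0.324). AGO1 stood at 7.93 and 7.95 on the IP arrays and at 7.82 and 7.94 on the lysate arrays. Its change was 0.06, with an interval of -0.21 to 0.33 (adjusted p = 0.666). The AGO1 change lay above that of 49.0% of the genes tested. AGO4 stood at 8.70 and 8.69 on the IP arrays and at 8.56 and 8.45 on the lysate arrays. Its arrays did not overlap, but the change of 0.19 did not pass, with an interval of -0.08 to 0.46 (adjusted p = 0.188). With hybridization control centring AGO1, AGO2 and AGO4 turned to -0.42, -0.31 and -0.29, and AGO1 was then called lower.

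AGO3 was the Argonaute gene called higher. Its brightest probe set, 219426_at, stood at 6.82 and 6.84 on the IP arrays and at 6.27 and 6.40 on the lysate arrays. The change was 0.50 ± 0.12 (SE), a 1.41-fold higher signal (limma, adjusted p = 0.00682), and it was 0.02 with hybridization control centring. The other AGO3 probe sets went the other way. Probe set 228932_at stood at 4.57 and 4.49 on the IP arrays and at 5.11 and 5.17 on the lysate arrays, lower by 0.61 ± 0.12 (adjusted p = 0.00402 over probe sets). Its IP mean is below the filter on low signals, so that it was tested through its lysate arrays alone, and with no filter its adjusted p was 0.0248. Probe set 241091_at stood at 5.32 and 5.09 on the IP arrays and at 5.74 and 5.62 on the lysate arrays, lower at -0.48 (adjusted p = 0.0195), a call lost without IP replicate 2, without lysate replicate 1 and with no filter on low signals. In the fit over probe sets 219426_at also lost its call with no filter (adjusted p = 0.0504) and without lysate replicate 1 (0.43, adjusted p = 0.0631). With the mean of the AGO3 probe sets the gene's change turned to -0.20 (adjusted p = 0.141). AGO4, AGO1 and AGO3 follow one another among the protein-coding genes of chromosome 1 in the gene table.

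The TNRC6 mRNAs, whose proteins link Argonaute to deadenylation, divided. TNRC6C rose: probe set 222820_at stood at 8.04 and 7.97 on the IP arrays and at 7.34 and 7.26 on the lysate arrays. Its change of 0.70 ± 0.12 (SE) is a 1.63-fold higher signal (limma, adjusted p = 0.0011), larger than that of 78.4% of genes, and did not pass with hybridization control centring (0.23). With the mean of the TNRC6C probe sets it was 0.30 (adjusted p = 0.0452). TNRC6A stood at 8.41 and 8.19 on the IP arrays and at 8.47 and 8.36 on the lysate arrays on its brightest probe set, 234734_s_at. These groups overlapped, and the change was -0.11 with an interval of -0.41 to 0.19 (adjusted p = 0.475). TNRC6B stood at 8.01 and 7.90 on the IP arrays and at 8.16 and 8.01 on the lysate arrays, a change of -0.13 with an interval of -0.41 to 0.16 (adjusted p = 0.386). The higher IP array of TNRC6B and the lower lysate array were equal to 2 decimals. With hybridization control centring TNRC6A and TNRC6B were called lower, at -0.59 and -0.61, and TNRC6A was also called lower with the mean of its probe sets (-0.51).

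**Figure D2:**
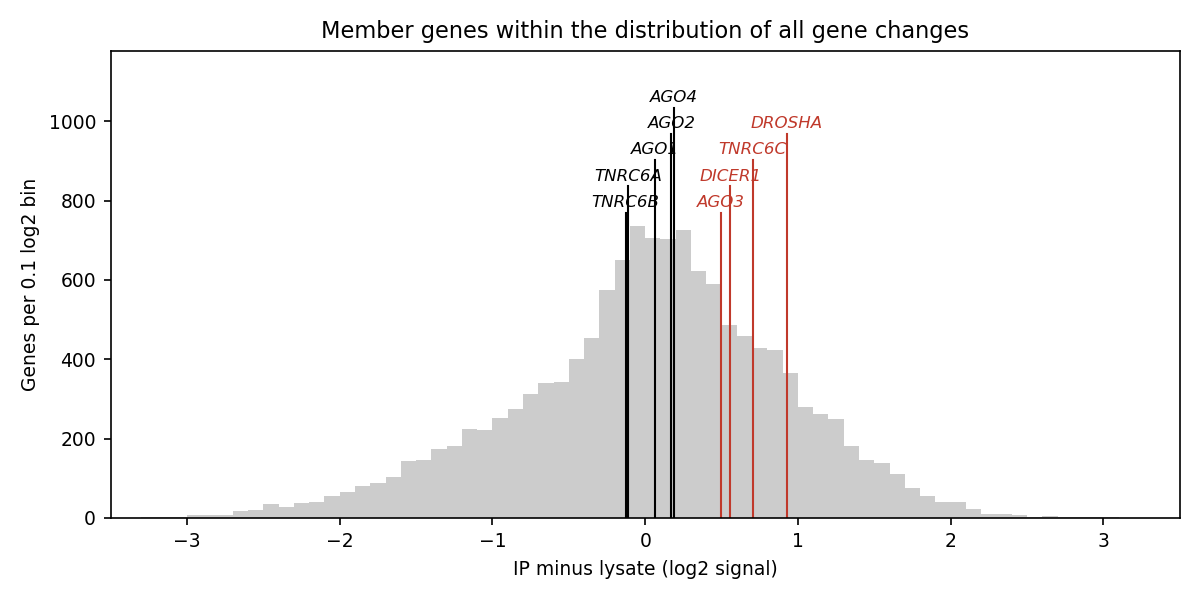
Grey bars count all 13165 genes by their IP minus lysate change (log2 signal, bins of 0.1), and vertical lines mark the 9 genes, red for those called higher and black for those that did not pass. The lines lie between -0.13 (TNRC6B) and 0.93 (DROSHA), and DROSHA lies above 85.5% of the genes counted in the bars.

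All 40 probe sets were then considered, since several genes had probe sets that moved apart. Of these, 29 had a mean log2 signal at or above the median over all probe sets (4.69) and were tested in a limma fit over all 27307 such probe sets. There 9 were higher in the IP, 4 were lower and 16 did not pass. Over all tested probe sets 59.4% passed, 31.5% as higher and 27.9% as lower. The IP arrays lay above both lysate arrays for 10 of the 29, below both for 9 and overlapped with them for 10, where the shares over all tested probe sets were 42.7%, 37.4% and 19.8%. Of the 29, 5 had a mean below the filter in 1 group, 4 in the IP (228932_at, 243834_at, 1561041_at and 222842_at of AGO4) and 1 in the lysate (228591_at), and were tested only through the group where they are high. As 3 of these 5 are among the calls, the counts are a description of the 29. With no filter 10 of all 40 were higher and 3 lower. With hybridization control centring 2 of the 29 were higher (218269_at of DROSHA and 213229_at of DICER1) and 16 lower.

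The 11 probe sets below the filter had array values between 2.19 and 5.04 and were not tested. Their changes ran from -0.89 for 235782_at of AGO3 to 0.89 for 233359_at of TNRC6C. The AGO3 probe set stood at 4.20 and 3.42 on the IP arrays and at 4.53 and 4.88 on the lysate arrays, the same direction as the other dim AGO3 probe sets. Among these 11 the IP arrays lay above the lysate arrays for 4, below for 2 and overlapped for 5. The shares over all probe sets below the filter were not computed, so these counts are a description.

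**Figure D3:**
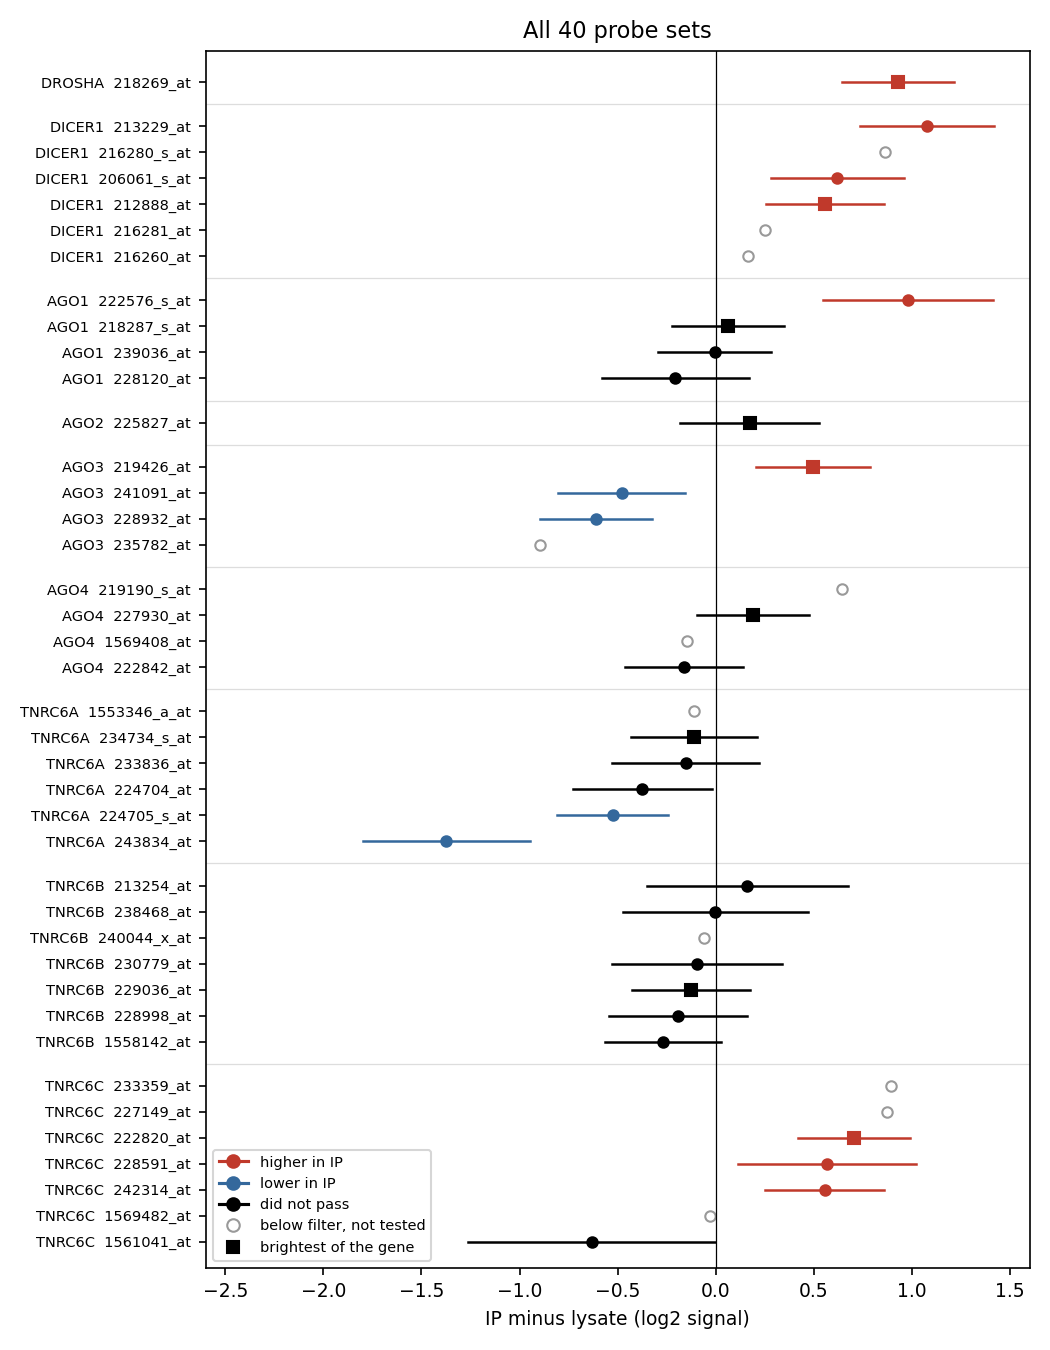
IP minus lysate change (log2 signal, horizontal axis) of each of the 40 probe sets, grouped by gene, with 95% intervals from the limma fit over probe sets. Red marks the 9 called higher, blue the 4 called lower, black the 16 that did not pass, open grey the 11 below the filter, and squares the brightest probe set of each gene. DICER1 probe sets lie on the positive side, TNRC6B probe sets lie around 0, and those of AGO3 lie on both sides.

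Whether the change differs between the probe sets of a gene was tested with limma's diffSplice and a Simes p per gene. This contrast is within the arrays. Of the 7 genes with at least 2 tested probe sets, AGO1, AGO3, TNRC6A and TNRC6C differed, and AGO4, DICER1 and TNRC6B did not pass. Among all 6251 genes with at least 2 tested probe sets, 41.9% differed. For AGO3, TNRC6A and TNRC6C the contrast includes a probe set with an IP mean below the filter (228932_at, 243834_at and 1561041_at). These were tested only through the group where they are high, so the count is a description. The count was 0 of 4 genes with the filter 1 unit higher, where AGO1 (adjusted p = 0.289) and TNRC6A (0.164) no longer passed and AGO3 and TNRC6C had a single probe set left, and 2 of 7 without lysate replicate 2. The higher filter took out 222576_s_at of AGO1 and 243834_at of TNRC6A, the probe sets furthest from the others of their gene. That fit therefore compared only the remaining probe sets and cannot show whether the calls of AGO1 and TNRC6A hold. With no filter 5 of 7 differed, AGO1, AGO3, AGO4, TNRC6A and TNRC6C.

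For AGO3 the brightest probe set lay 1.04 above the mean change of the other 2 (adjusted p = 3.21e-04, and 3.63e-04 for the gene, or 0.00717 for the gene with no filter). Of all single probe sets set against the others of their gene, 31.1% differed. For AGO1 the outlying probe set was 222576_s_at, which stood at 6.44 and 5.92 on the IP arrays and at 5.22 and 5.18 on the lysate arrays. Its change was 0.98 ± 0.18 (SE), against changes of 0.06, -0.01 and -0.21 for the other 3 (gene adjusted p = 0.00152). The class of this probe set, marked _s, can match more than 1 transcript. The brightest AGO1 probe set, 218287_s_at, with the change of 0.06, has the same class. Without that class the AGO1 probe sets no longer differed (adjusted p = 0.487). That fit left out 222576_s_at itself, so it cannot show whether the class matters, and the part of the class was not tested.

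For TNRC6A all 5 tested probe sets had a negative change, from -0.11 to -1.37. Probe set 243834_at stood at 4.52 and 4.55 on the IP arrays and at 5.66 and 6.16 on the lysate arrays, lower by 1.37 ± 0.18 (adjusted p = 6.46e-04). Its IP mean is below the filter, so that it too was tested through its lysate arrays alone, and with no filter its adjusted p was 0.00587. Probe set 224705_s_at stood at 7.16 and 7.26 on the IP arrays and at 7.74 and 7.73 on the lysate arrays, lower by 0.53 (adjusted p = 0.00768). Probe set 224704_at, with a change of -0.37, did not pass. With all arrays it was called with the filter 1 unit higher (adjusted p = 0.0412) and with another variance model (adjusted p = 0.0338). It was also called with hybridization control centring (-0.85). Without IP replicate 2 its change was -0.54. The brightest TNRC6A probe set, by which the gene was counted above, is the 1 with the smallest change. In diffSplice 243834_at stood furthest from the mean change of the others, at -1.08 (adjusted p = 4.69e-04). The brightest, 234734_s_at, stood at 0.49 (adjusted p = 0.0488). The gene's probe sets differed at an adjusted p of 8.47e-04, which was 0.00159 with no filter and 0.0662 without lysate replicate 2.

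For TNRC6C, probe sets 222820_at, 242314_at and 228591_at rose by 0.70, 0.55 and 0.57. The last of these was called at an adjusted p of 0.0373, a call lost without either lysate array and with no filter (adjusted p = 0.109). Its lysate mean is below the filter, and without IP replicate 2 it was not tested. Probe set 1561041_at stood at 4.57 and 4.34 on the IP arrays and at 4.67 and 5.51 on the lysate arrays, a change of -0.63 that did not pass (adjusted p = 0.0771). Without lysate replicate 1 the change was -1.05 and was called (adjusted p = 0.00559). The lysate arrays themselves differ here by more than the gap between lysate replicate 1 and the IP arrays. The gene's probe sets differed at an adjusted p of 0.00423, or 0.0179 with no filter. Probe set 1561041_at, whose IP mean is below the filter, stood at -1.24 against the mean change of the others (diffSplice, adjusted p = 0.00269). No other TNRC6C probe set passed in that test. Without lysate replicate 2, 1561041_at fell below the filter, so that fit compared only the other probe sets. It cannot show whether the difference depends on that array.

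None of the 6 tested TNRC6B probe sets passed in limma, and 0 of them had an unadjusted p under 0.05. Their changes ran from -0.27 for 1558142_at to 0.16 for 213254_at, and the test between them gave an adjusted p of 0.853. Probe set 1558142_at stood at 7.15 and 7.02 on the IP arrays and at 7.30 and 7.41 on the lysate arrays (adjusted p = 0.105). The DICER1 probe sets changed by 0.56 to 1.08, with an adjusted p of 0.0639 between them, and the AGO4 probe sets by -0.16 and 0.19 (0.119). Of the single DICER1 probe sets, 213229_at lay 0.49 above the mean of the other 2 (adjusted p = 0.0475).

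The other genes of the microRNA pathway were taken as 3 lists. Of 21 measured genes for precursor processing, export and turnover, 9 were higher in the IP, 7 were lower and 5 did not pass, with a median change of -0.01. These are 42.9% higher and 33.3% lower, beside 35.0% and 28.8% of all genes, whose median change was 0.08. The median of the list was 0.02 to 0.06 with 1 array left out. XPO5, encoding the exportin that carries precursors out of the nucleus, rose by 1.94 ± 0.13 (SE), a 3.84-fold higher signal (limma, adjusted p = 3.49e-05). SRRT, encoding the cap-complex partner ARS2, rose by 1.12, and DIS3L2, encoding the exonuclease that degrades uridylated precursors, by 1.11. PRKRA, encoding the Dicer partner PACT, fell by 2.39, so that its signal was 5.22-fold higher in the lysate. ERH, encoding a small DGCR8-binding protein, fell by 1.83, and LIN28B, whose protein blocks let-7 maturation, fell by 1.61.

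Of 18 measured genes for Argonaute loading and cofactors, 12 were higher, 3 lower and 3 did not pass, with a median of 0.68. These are 66.7% higher and 16.7% lower, beside 35.0% and 28.8% of all genes. GEMIN4, encoding a protein found with Argonaute complexes, rose by 2.19 ± 0.14 (SE), a 4.57-fold higher signal (limma, adjusted p = 3.46e-05). ZSWIM8, encoding a ubiquitin ligase adaptor that acts on Argonaute during target-directed microRNA degradation, rose by 1.87, and the chaperone gene HSP90AB1 by 1.19. TSN, encoding translin of the passenger-strand nuclease C3PO, fell by 1.69 and the cochaperone gene PTGES3 by 0.91. P4HA1, a prolyl hydroxylase gene, fell by 0.40 (adjusted p = 0.0188). That call was lost without IP replicate 2, without lysate replicate 2, with no filter (adjusted p = 0.0551) and at a threshold of 0.01.

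Of 20 measured genes for factors recruited by TNRC6 proteins, 4 were higher, 7 lower and 9 did not pass, with a median of -0.10. These are 20.0% higher and 35.0% lower, beside 35.0% and 28.8% of all genes. The median ran from -0.19 without lysate replicate 1 to -0.03 without IP replicate 2 or without lysate replicate 2. The decapping scaffold gene EDC4 rose by 1.75, the deadenylase gene PAN2 by 1.55 and CNOT1, encoding the scaffold of the CCR4-NOT complex, by 0.89. The deadenylase genes CNOT7 and CNOT6L fell by 2.00 and 1.14, and CNOT9, encoding the subunit that binds TNRC6 tryptophans, fell by 1.40. Of these 18 named genes, 10 had other tested probe sets, 19 in all, and all 19 passed with the sign of the gene's call. The 18 were picked for large called changes, which favours such agreement, and the other list genes were not checked in this way. Sizes differed between probe sets, as from 0.41 to 2.18 for DIS3L2 and from -0.70 to -2.30 for CNOT9. With hybridization control centring the counts of higher and lower genes became 5 and 11 for processing, 6 and 5 for loading, and 3 and 12 for recruited factors. The medians of the lists were then -0.49, 0.20 and -0.58, beside -0.40 for all genes. All 18 named genes kept their sign there, which was fixed in advance. That centring moved every change by -0.48, and the smallest named rise was 0.89 (CNOT1).

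**Figure D4:**
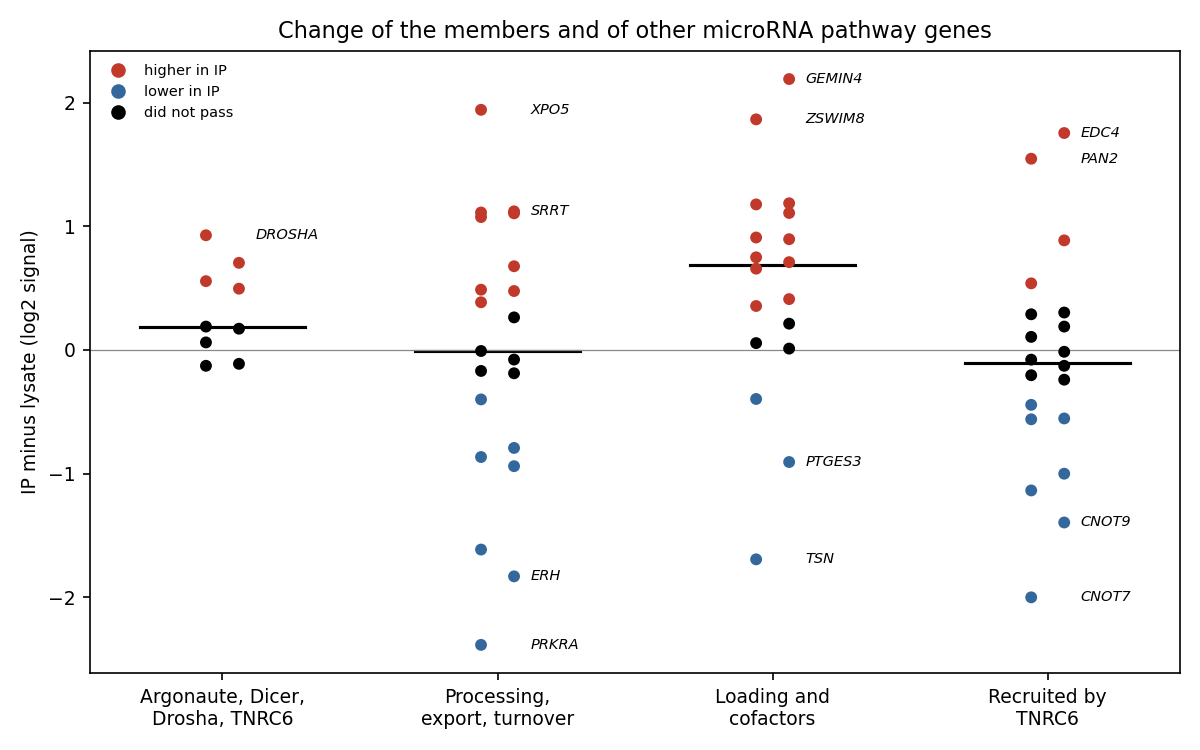
IP minus lysate change (log2 signal) of the 9 genes and of the 3 other lists, 1 point per gene, red for higher, blue for lower and black for not passed, with a bar at each median. The 9 genes span -0.13 to 0.93 around a median of 0.19, while the processing list spans -2.39 (PRKRA) to 1.94 (XPO5).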

How the data were processed

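RNA of 2 FMRP IP samples and 2 lysate samples was measured on 1 Affymetrix array each. The authors deposited signals on a log2 scale, as the values show. How they corrected background, summarised probes and normalized arrays is not given in the sources used here. No detection calls or depths come with the values.

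Among the 54675 probe sets, 62 are controls, 41091 carry a single gene symbol, 1801 several and 11721 none. Entrez numbers linked 41037 of the 41091 to the gene table of GRCh38.p14, used for names and gene order only. Probe sets with a mean of at least 4.69 were kept (27307), and a gene was represented by its kept single-symbol probe set with the highest mean (13165 genes). The model was limma 3.58.1 under R 4.3.3, with lmFit and eBayes, IP minus lysate, no covariate, and 2 residual plus 5.50 prior degrees of freedom. P-values were adjusted by Benjamini-Hochberg over all genes or all kept probe sets. Probe sets within a gene were compared with diffSplice. An exact permutation test of 2 against 2 cannot go below p = 0.333. The fits were tested on simulated data. There the gene fit recovered 1 of 50 genes changed by 0.5 log2 units, 23 of 44 changed by 1 and 44 of 45 changed by 2. It called 7 of 12981 unchanged genes. A far smaller share of genes was changed there than passed here, so these rates do not carry over to these data. Figures were drawn with matplotlib 3.10.9.

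The members and lists were chosen with earlier results of these data known. Named genes were the members, up to 3 called genes per direction and pathway list, and the 3 genes nearest to the member with the largest rise. No called member gene was lower, so no genes near a fall were named. LIN28A, HSPA8 and AHSA1 of the lists had no kept probe set of their own. Alternatives changed the normalization, the filter, the class and choice of probe sets, a replicate block, the variance model, the threshold and, in turn, each array. No transcript or protein sequences were used here.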

Additional observations from a re-analysis of the deposited data

How the results depend on the processing

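Centring each array on its hybridization controls moved the most results. It gave 2090 higher and 6388 lower genes over all genes, 1 higher and 3 lower of the 9 microRNA machinery genes, and 2 higher and 16 lower of their probe sets. Under it the higher and lower counts were 5 and 11 for processing and export, 6 and 5 for loading and cofactors, and 12 lower for TNRC6-recruited factors. AGO1, AGO2 and AGO4 turned to -0.42, -0.31 and -0.29, as did their brightest probe sets 218287_s_at, 225827_at and 227930_at, and 213254_at of TNRC6B turned to -0.32. Averaging the probe sets of a gene gave 1 lower gene of the 9 (TNRC6A) and turned AGO3 to -0.20. Quantile normalization turned 239036_at of AGO1 to 0.030. With unique class probe sets AGO1 turned to -0.21, and 1047 of 2780 genes differed between probe sets. Of the list genes still measured there, 5 of 16 for processing and 2 of 16 for recruited factors were higher. With the filter 1 unit higher, 2 of 19 member probe sets were lower, and 0 of the 4 member genes that still had several differed. Of those genes, DICER1 and TNRC6B had not passed with the lower filter either. For AGO1 and TNRC6A the probe sets furthest from the others were no longer in the fit. At a threshold of 0.01, 1579 genes differed between probe sets. With 1 array left out, 1461 to 2315 genes differed, and 2 to 4 of the member genes, the 2 without lysate replicate 2. Leaving out 1 array left 4 member genes higher and none lower in each case. Small changes that did not pass changed sign in some of those fits: 213254_at ran from -0.14 to 0.46, 230779_at from -0.29 to 0.10, 238468_at from -0.30 to 0.29, 233836_at from -0.35 to 0.041 and 239036_at from -0.067 to 0.054. The causes of these changes were not tested. With the replicate number as a block, 4 member genes were higher and 0 lower and 4 differed between probe sets, and 4731 and 3868 of all genes were higher and lower. The differences between replicates 1 and 2 correlated at 0.10 between IP and lysate across genes, and the samples share only a number. Without detection calls, the floor of low signals is unknown.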

Other observations

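Antisense genes named after DICER1 and TNRC6C have probe sets of their own, chosen here by symbol alone and after the data were seen. DICER1-AS1 stood at 6.04 and 5.66 on the IP arrays and at 5.65 and 5.77 on the lysate arrays on 229227_at, a change of 0.14 that did not pass (limma, adjusted p = 0.475 over probe sets). TNRC6C-AS1 rose on 242364_x_at, which stood at 6.22 and 6.40 on the IP arrays and at 5.66 and 5.85 on the lysate arrays, a change of 0.55 (adjusted p = 0.0111). Its class, marked _x, can cross-hybridize. Another TNRC6C-AS1 probe set, 230526_at, lay below the filter at 4.41 and 4.47 on the IP arrays and at 3.86 and 3.78 on the lysate arrays. The remaining antisense probe sets, 1557063_at and 239062_at, had means of 2.79 and 3.08 in IP samples and of 2.70 and 2.995 in lysate samples.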
